A study of Mus musculus with 8 samples.

Results

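Mast cell and basophil genes were examined in leukaemia stem cells of mice. The set was defined by name as 8 genes, Cpa3, Mcpt8, Ms4a2, Fcer1a, Prss34, Hdc, Il1rl1 and Cd200r3, and each was read from the transcript row that the platform annotation gave that symbol, taking the row with the highest mean. In this way 7 of the 8 genes were found, among 19505 genes in all, and Il1rl1 was not analysed here. Microarrays had been run on GFP-positive granulocyte-macrophage progenitors (GMPs), the precursors of neutrophils and monocytes, sorted out of recipient bone marrow after transplantation. All 8 samples carried the leukaemia fusion oncogene MLL-AF9. One group of 3 arrays had the genotype Pik3ca-/- (KO), which lacks the p110-alpha catalytic subunit of phosphoinositide 3-kinase (PI3K), and the other group of 5 arrays was wild type for Pik3ca (WT). Nothing read here states how the allele was deleted, how old the mice were, or whether each array stands for its own mouse or a pool. A p-value therefore speaks only of the spread among these 8 samples, which may be technical. The comparison of KO with WT addressed which transcripts differ in these cells when p110-alpha is missing.

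Mast cells and basophils are granulated cells of allergy and of defence against parasites, and both arise from progenitors close to the GMP. IgE binds the high-affinity receptor on their surface, and crosslinking of the receptor starts a cascade of kinases, PI3K among them, that releases histamine and granule proteases. GATA2 is a transcription factor that both lineages depend on, and MITF serves the mast cell lineage.

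Values are the deposited log2 values, so that a difference of 1 is a factor of 2. The median transcript row of an array lay between 5.20 and 5.40. As a measure of background, the highest of 23 background rows, which carry names by GC content, lay between 5.78 and 5.97. Of 12 markers of GMPs and primary granules, among them Mpo and Elane, 12 lay above the median row on all 8 arrays. So did 9 of 10 mature neutrophil markers and 8 of 11 monocyte and macrophage markers. Lying above that row therefore does not tell GMPs from these lineages. WT array 3 stood apart, with a mean correlation with the other arrays, across transcript rows, of 0.964, where the other 7 arrays had 0.985 to 0.987, and results are therefore also given without it. Pik3ca lay between 8.73 and 9.40 in KO and between 8.41 and 9.58 in WT, groups that overlap. Over all 8 arrays its difference was -0.16, with an exact permutation p of 0.661. The exception was WT array 3, at 8.41, and without it all 3 KO arrays lay below the other 4 WT arrays, by 0.39 on average, with an exact permutation p of 0.0286, the smallest that 35 splits can give. Without WT array 3, 5.56% of all genes tested below also had groups without overlap. Nothing read here places the Pik3ca probes relative to the deletion.

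The promoters are shown because 5 of the 7 measured genes share a motif there. Sequences came from RefSeq (GRCm38.p6), in which 8 of 8 genes had an entry, and the search covered the 250 bases before each start site on both strands. The letters AGATAA or TGATAA, which GATA factors recognise, were found before Cpa3, Prss34, Ms4a2, Fcer1a and Cd200r3, and in neither Mcpt8 nor Hdc. The same letters occur in 16.6% of all 32851 promoters of that table in a window of equal length. The last 120 bases before the start of each gene follow, 5′ to 3′ in the direction of the gene, with matches to either motif on either strand in capitals.
Ms4a2, chr19:11623720-11623839, minus strand: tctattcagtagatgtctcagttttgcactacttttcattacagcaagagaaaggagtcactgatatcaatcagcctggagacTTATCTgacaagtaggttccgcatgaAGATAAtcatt
Fcer1a, chr1:173227230-173227349, minus strand: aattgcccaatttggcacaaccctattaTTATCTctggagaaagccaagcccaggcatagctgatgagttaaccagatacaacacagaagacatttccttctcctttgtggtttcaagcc
Cpa3, chr3:20242182-20242301, minus strand: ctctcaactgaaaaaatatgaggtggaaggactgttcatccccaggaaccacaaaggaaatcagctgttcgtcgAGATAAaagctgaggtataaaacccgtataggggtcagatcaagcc
Prss34, chr17:25298274-25298393, plus strand: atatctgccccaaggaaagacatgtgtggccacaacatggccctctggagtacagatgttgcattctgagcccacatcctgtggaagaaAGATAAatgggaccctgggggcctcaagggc
Cd200r3, chr16:44943558-44943677, plus strand: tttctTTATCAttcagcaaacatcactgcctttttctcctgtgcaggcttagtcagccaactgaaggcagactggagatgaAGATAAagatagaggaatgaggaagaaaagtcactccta
Mcpt8, chr14:56085198-56085317, minus strand: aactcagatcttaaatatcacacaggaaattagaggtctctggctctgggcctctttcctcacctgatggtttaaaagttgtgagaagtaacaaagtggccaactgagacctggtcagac
Hdc, chr2:126618679-126618798, minus strand: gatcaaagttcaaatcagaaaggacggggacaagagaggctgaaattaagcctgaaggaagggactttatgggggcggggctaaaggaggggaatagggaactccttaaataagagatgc
In Ms4a2 there were 3 matches, 2 of them within 37 bases of the start, and the third, 224 bases before it, lies outside the printed stretch. In Cpa3 and Prss34 the match began 46 and 31 bases before the start. Cd200r3 held 1 match to each motif, and Fcer1a held 1, beginning 92 bases before its start. Among the other motifs, the MITF E-box CATGTG was found in Fcer1a and Prss34, and occurs in 12.3% of all promoters. The E-box CACGTG and the STAT motif TTCNNNGAA were found in 0 members, and occur in 6.02% and 7.02% of all promoters. The ETS motif AGGAAG was found in Hdc and Cd200r3, and occurs in 29.5% of all promoters. No searched motif overlaps another in these matches. Such matches are letters in a window and not evidence that a factor binds there.

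**Figure D1:**
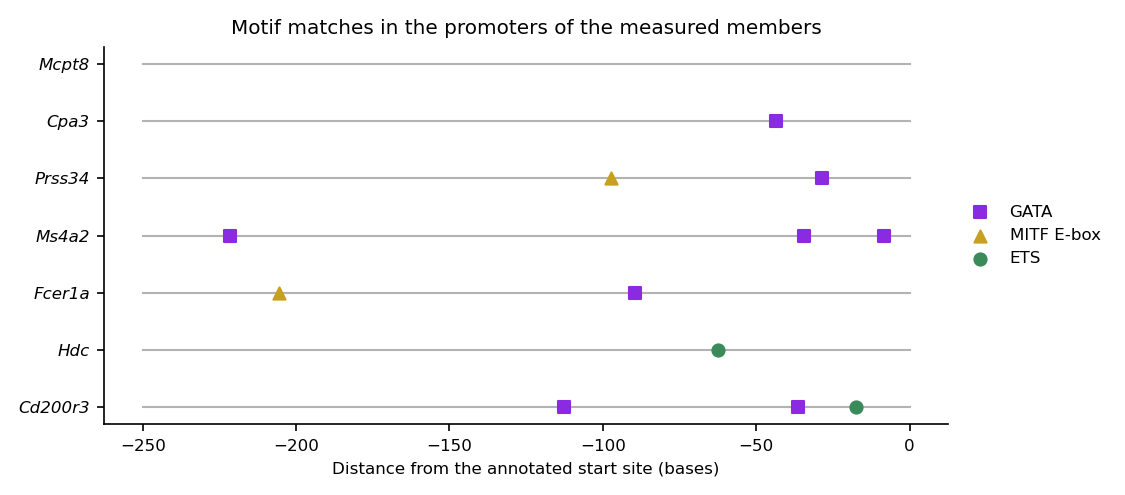
Motif matches in the 250 bases before the start site of the 7 measured genes. The horizontal axis is the distance from the annotated start site in bases, each grey line is 1 promoter, and symbols mark matches to GATA, MITF E-box and ETS motifs. GATA matches appear in 5 of the 7 promoters, with 3 in Ms4a2, and Mcpt8 has no match to any searched motif.

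The genes fell into those read clearly above background and those not. Mcpt8 and Hdc were above the highest background row on 8 of 8 arrays, Ms4a2 on 7, Cpa3 on 5 and Prss34 on 1. Fcer1a and Cd200r3 were above it on 0 arrays, and also lay below the median row on all 8. A gene entered the test if it lay above the median row on at least 3 arrays, which 5 of the 7 did, together with 10293 genes in all. In bulk RNA, fewer cells of a type and less RNA per cell cannot be told apart.

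None of the 5 tested genes was called between KO and WT at an adjusted p under 0.05 (limma with Benjamini-Hochberg adjustment over 10293 genes). The background was the same, with 0% of all tested genes called and a smallest adjusted p of 0.999. At an unadjusted p under 0.05, limma gave 0 of the 5 members, beside 2.86% of all tested genes, and the exact permutation test gave 0 of the 7 measured genes. KO and WT arrays overlapped in all 7, beside 3.1% of tested genes without overlap. Without WT array 3, limma again called 0% of genes at an adjusted p under 0.05. At an unadjusted p under 0.05 it then gave 1 of the 5 members, Cpa3, beside 4.69% of all tested genes, and 5.56% had groups without overlap.

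**Figure D2:**
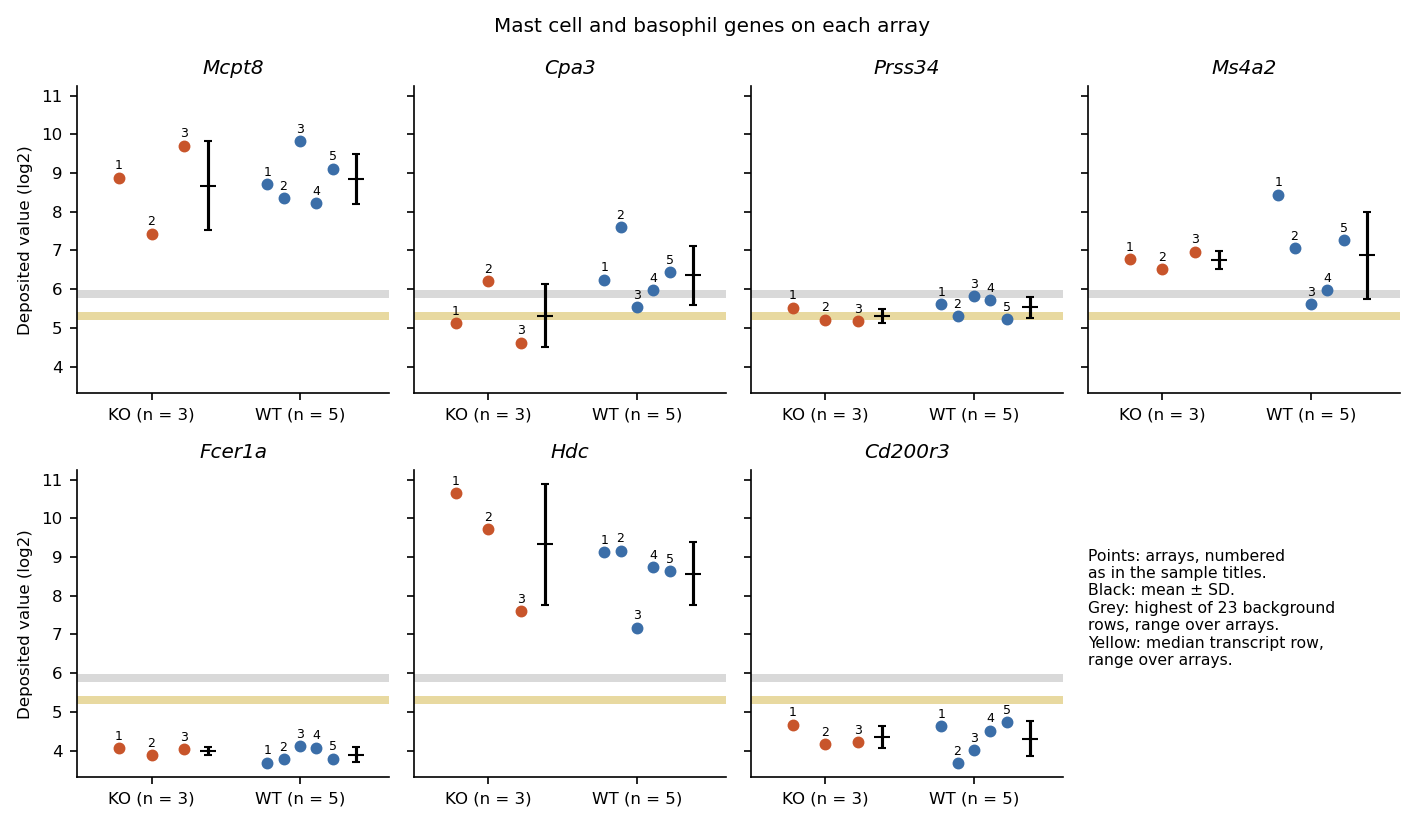
Deposited log2 value of each measured gene on each array, with KO in orange, WT in blue, array numbers beside the points and mean ± SD in black. The grey band is the range over arrays of the highest background row, 5.78 to 5.97, and the yellow band that of the median transcript row, 5.20 to 5.40. Mcpt8 and Hdc lie above both bands on every array, while Fcer1a and Cd200r3 lie below them.

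Among the granule proteases, Mcpt8 encodes mast cell protease 8, a serine protease that in mice marks basophils. Mcpt8 was 8.88, 7.43 and 9.70 in KO arrays 1 to 3 and 8.72, 8.35, 9.81, 8.21 and 9.11 in WT arrays 1 to 5. The lowest value was in KO array 2 and the 2 highest were in WT array 3 and KO array 3, so each group held high and low arrays. The means were 8.67 ± 1.15 (SD, n = 3) and 8.84 ± 0.65 (SD, n = 5), or -0.17 for KO minus WT, with a standard error of 0.53 and an exact two-sided permutation p of 0.821. The 95% interval of limma ran from -1.37 to 1.03, so values from 2.59-fold lower to 2.05-fold higher in KO lay within it. The sign rested on single arrays, with a difference of 0.45 without KO array 2 and 0.07 without WT array 3, and it also turned, to 0.019, with array weights.

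Cpa3 encodes carboxypeptidase A3, a protease stored in mast cell granules and also made by basophils and early progenitors. Its values were 5.12, 6.20 and 4.61 in KO and 6.24, 7.59, 5.53, 5.97 and 6.44 in WT. Cpa3 was above the median row on 5 of 5 WT arrays but on 1 of 3 KO arrays, and KO array 2 lay within the WT range. The means were 5.31 ± 0.81 (SD, n = 3) and 6.35 ± 0.77 (SD, n = 5). The difference of -1.04, with a standard error of 0.50, was the largest of the 5 tested members, and its 95% interval ran from -2.17 to 0.08. It did not pass the test, with an unadjusted limma p of 0.0650, an adjusted p of 0.999 and an exact permutation p of 0.125. Without WT array 3 the difference was -1.25, with an unadjusted limma p of 0.0296, an adjusted p of 0.988 and an exact permutation p of 0.114. The unadjusted limma p was also under 0.05 with array weights (0.0276), without KO array 2 (0.0204) and with replicate number as a block (0.00879). In these settings 4.53%, 2.84% and 3.39% of all tested genes were under 0.05. The block rests on arrays 1 to 3 of each group, since numbers 4 and 5 occur only in WT. Over all alternatives the adjusted p of Cpa3 was 0.939 or higher. Left out in turn, single arrays moved the difference from -1.49 for KO array 2 to -0.69 for KO array 3. KO arrays 1 and 3 and WT array 3 were not above the background rows.

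Prss34, mast cell protease 11, is a tryptase-like protease of basophils. It lay between 5.18 and 5.52 in KO and between 5.22 and 5.81 in WT, near the median row in both groups. The difference was -0.22 with a standard error of 0.22 and an exact permutation p of 0.179, and WT array 3, the brightest at 5.81, was the only array above the background rows. The other granule proteases of the list, mast cell tryptases and chymases such as Tpsab1, Tpsb2, Cma1 and Mcpt4, lay below the median row on all 8 arrays, and all 9 of these genes fell between 2.74 and 4.94. Ctsg, which encodes cathepsin G of neutrophil primary granules and is also found in mast cells, was the 1 further protease tested. KO averaged 15.3 ± 0.22 (SD, n = 3), and the WT average was 15.2 ± 0.42 (SD, n = 5). From these 9 dim proteases, Mcpt4 was picked out after values were seen. It was lower on all 3 KO arrays, at 3.81 to 4.32, than on any WT array, at 4.35 to 4.88. Its exact permutation p was 0.0179, and no lower value is possible with 56 splits. Mcpt4 did not enter the test, and among the genes that did, 3.1% had groups without overlap. Its levels lie below the median row and the highest background row on all 8 arrays.

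Of the IgE receptor, only 1 of its 2 specific subunits was above background. Ms4a2 encodes the beta chain, which amplifies signals from the receptor, and was 6.77, 6.51 and 6.97 in KO and 8.44, 7.06, 5.60, 5.97 and 7.27 in WT. The KO arrays lay close together, with a mean of 6.75 ± 0.23 (SD, n = 3), inside a wider WT group with a mean of 6.87 ± 1.13 (SD, n = 5). The difference of -0.12, with a standard error of 0.58, had an exact permutation p of 0.911 and a 95% interval from -1.43 to 1.19. It turned to 0.27 without WT array 1, the highest, and was -0.44 without WT array 3, the lowest.

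Fcer1a encodes the alpha chain, which binds IgE itself. It lay between 3.88 and 4.06 in KO and between 3.69 and 4.12 in WT, below the median row on every array. Its difference of 0.10 had an exact permutation p of 0.446, and it lay under the filter, so it has no adjusted p. Fcer1g, the shared gamma chain that many myeloid receptors use, averaged 13.03 ± 0.24 (SD, n = 3) for KO, while WT averaged 13.04 ± 0.38 (SD, n = 5). These arrays thus read the beta and gamma chains in bulk RNA in which the alpha chain was not above background. Bulk values do not place the chains in the same cells.

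Hdc encodes histidine decarboxylase, the enzyme that makes histamine, and is known in myeloid progenitors as well as in mast cells and basophils. Its values were 10.65, 9.71 and 7.60 in KO and 9.13, 9.16, 7.17, 8.73 and 8.63 in WT. It spanned 3.48 log2 units, or 11.2-fold, between WT array 3 and KO array 1, and its SD over the 8 arrays was larger than that of 95.9% of tested genes. KO arrays 1 and 2 lay above all WT arrays, while KO array 3 lay below 4 of the 5. The difference was 0.76 with a standard error of 0.69, a 95% interval from -0.80 to 2.32 and an exact permutation p of 0.411. It rested on KO array 1, without which it was 0.10, and it was 1.62 without KO array 3, with an unadjusted limma p of 0.0204, beside 3.32% of all tested genes under 0.05 there, and an adjusted p of 0.999.

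Cd200r3 encodes an activating receptor of the CD200 receptor family on mast cells and basophils. It lay between 4.17 and 4.67 in KO and between 3.67 and 4.73 in WT, below the median row on every array, with a difference of 0.04 and an exact permutation p of 0.893. Leaving out KO array 1, WT array 2 or WT array 3 turned the sign, to -0.12, -0.12 and -0.03.

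**Figure D3:**
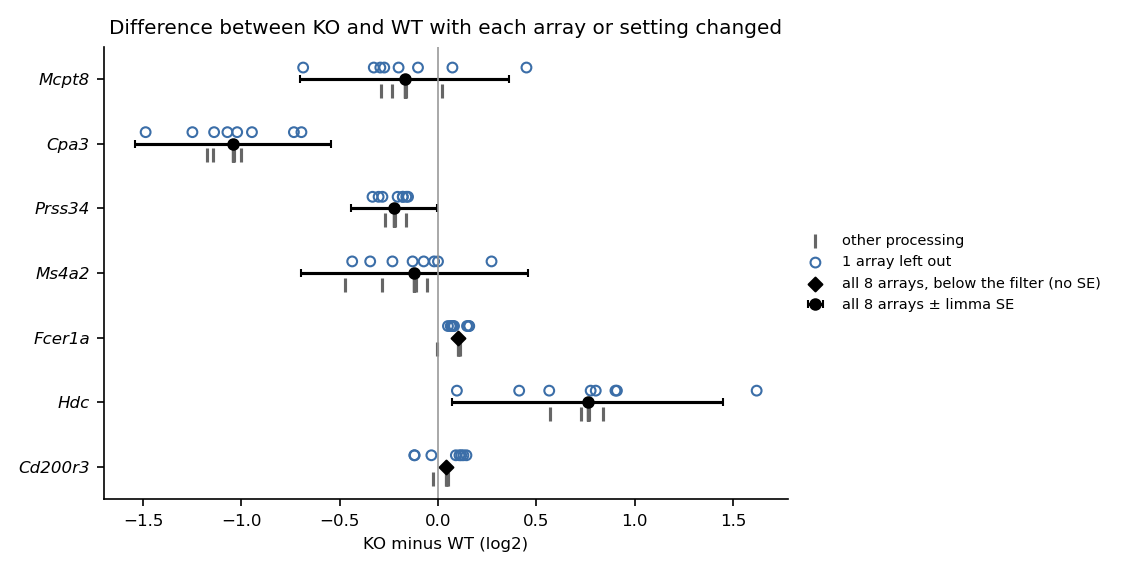
Difference between KO and WT on the log2 scale for the 7 measured genes. Black circles with bars are the differences over all 8 arrays ± the limma standard error, diamonds are the 2 genes below the filter, open circles leave out 1 array each, and ticks are other processing choices. Cpa3 and Prss34 stay below 0 in all of these, Hdc stays above 0, and Mcpt8, Ms4a2, Fcer1a and Cd200r3 fall on both sides.

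No shared direction was seen among the 7 genes across arrays. Over their 21 pairs, Pearson's r had a median of -0.04 and ranged from -0.83 to 0.43, with 10 pairs above 0, while the median over all pairs of tested genes was 0.01. Each pair was tested by exact permutation over the 8 arrays, and 0 of 21 had an adjusted p under 0.05 (Benjamini-Hochberg over the 21 pairs). Both groups are among the 8 arrays.

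The pair with the strongest relation was Ms4a2 and Fcer1a, the 2 receptor chains, and it was negative. Pearson's r was -0.83 with an exact permutation p of 0.00479 and an adjusted p of 0.101, and Spearman's rho was -0.90 with an exact permutation p of 0.00456 and an adjusted p of 0.0958. Leaving out WT arrays 1 and 3, the 2 farthest from the median of Ms4a2, gave an r of -0.62. Over all pairs of tested genes, 2.20% had an r below -0.83. Fcer1a was below the median row throughout and its whole range was 0.43, so this relation joins 1 measured gene with 1 at background.

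Mcpt8 and Hdc, which were above background on all arrays, also ran opposite to each other. Pearson's r was -0.66, with an exact permutation p of 0.0724 and an adjusted p of 0.507, and Spearman's rho was -0.69, with an exact permutation p of 0.0694 and an adjusted p of 0.486. Hdc was lowest in WT array 3 and KO array 3, the arrays in which Mcpt8 was highest. The r was -0.43 without KO array 2 and WT array 3, the 2 farthest from the median of Mcpt8, -0.50 when WT array 3 alone was dropped and -0.92 when KO array 1 was, and removing the group means left -0.66. The relation did not pass the adjustment, and 8.59% of all pairs of tested genes had an r below -0.66.

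Cpa3 and Mcpt8 had an r of -0.53, with an exact permutation p of 0.170, and a rho of -0.43, with a permutation p of 0.299, with adjusted p of 0.864 and 0.945. The r was -0.36 without KO array 3 and WT array 2. Cpa3 and Fcer1a had an r of -0.70, with an exact permutation p of 0.0505, and a rho of -0.71, with a permutation p of 0.0576, with adjusted p of 0.507 and 0.486. The r was -0.77 without the same 2 arrays. Of all pairs of tested genes, 14.9% had an r below -0.53 and 6.83% an r below -0.70. Among the 5 genes above the filter, the highest r was 0.30, between Ms4a2 and Hdc, with an exact permutation p of 0.475 and an adjusted p of 0.864, and a rho of 0.17 with a permutation p of 0.703 and an adjusted p of 1. That r exceeded 69.8% of those over all pairs of tested genes. It was -0.07 without WT array 3 and -0.16 without WT arrays 1 and 3.

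**Figure D4:**
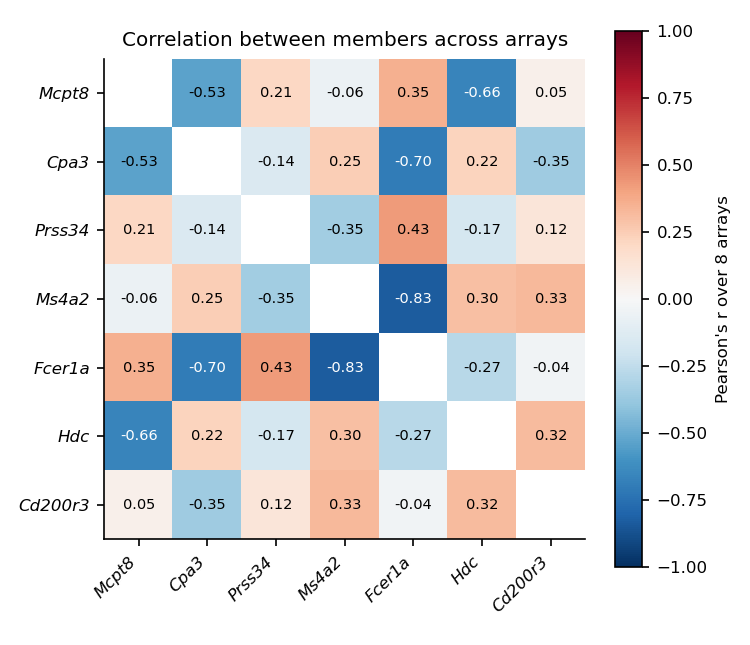
Pearson's r over the 8 arrays for each pair of the 7 measured genes, with red for positive and blue for negative values. The range is -0.83 to 0.43, and the most negative cells are Ms4a2 with Fcer1a, Cpa3 with Fcer1a and Mcpt8 with Hdc.

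The genes most like the set were sought against the mean of its 5 tested members, each standardised over the 8 arrays. The closest were Cd320, a receptor for transcobalamin, with r of 0.93, Tent5c, a poly(A) polymerase gene, with 0.92, Csnk2a2, a catalytic subunit of casein kinase 2, with 0.91, Pkd1 with 0.90, Snx11, a sorting nexin, with 0.90, Daam1, a formin, with 0.90, Arhgap10 with 0.89 and Rnft1 with 0.89. None of these is in the lists of mast cell and basophil genes. This mean stood poorly for its members, since each had an r between -0.51 and 0.10 with the mean of the other 4.

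The arrays at the extremes of Ms4a2 were also highest for markers of several other lineages, and lowest for some. Of 8 measured megakaryocyte and platelet markers, 5 were tested and 3 lay above the median row on all arrays. Their summed level, on the log2 scale, was 13.80 in WT array 1, where Ms4a2 was highest, and between 8.95 and 10.22 on the other 7, with KO between 9.05 and 9.24. Without WT array 1 the Ms4a2 difference was 0.27, as given above. Of 7 measured eosinophil markers, 3 were tested, and their summed level was 13.09 in WT array 3 and 13.82 in WT array 4, while WT arrays 1, 2 and 5 reached 10.51 to 10.86 and KO arrays 10.89 to 11.98. In the same 2 arrays Ms4a2 was lowest, at 5.60 and 5.97. The first value lay below the highest background row of its array, at 5.78, and the second just above it, at 5.93. The high markers there were Prg2 and Prg3, while the eosinophil peroxidase gene Epx and the interleukin-5 receptor gene Il5ra lay below the median row on all arrays. Siglecf, the third one tested, did not follow Prg2 and Prg3, with its highest value in KO array 1, at 11.84, and 10.55 and 10.57 in WT arrays 3 and 4. The sums of other lineages were also mostly highest in these arrays. WT array 1 was highest for erythroid and GMP markers, at 11.26 and 19.78. WT array 3 was highest for monocyte, B cell, and T and NK cell markers, at 16.55, 9.91 and 8.76. For dendritic cell markers WT array 4 was highest, at 14.15, while mature neutrophil markers were highest in KO array 3, at 20.14. WT arrays 1, 3 and 4 were also lowest for some lists. GMP markers were lowest in WT array 3, at 19.39, and erythroid markers in WT array 4, at 9.72. T and NK cell markers were lowest in WT array 1, at 7.68. The part of these markers in the spread of Ms4a2 was not tested.

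**Figure D5:**
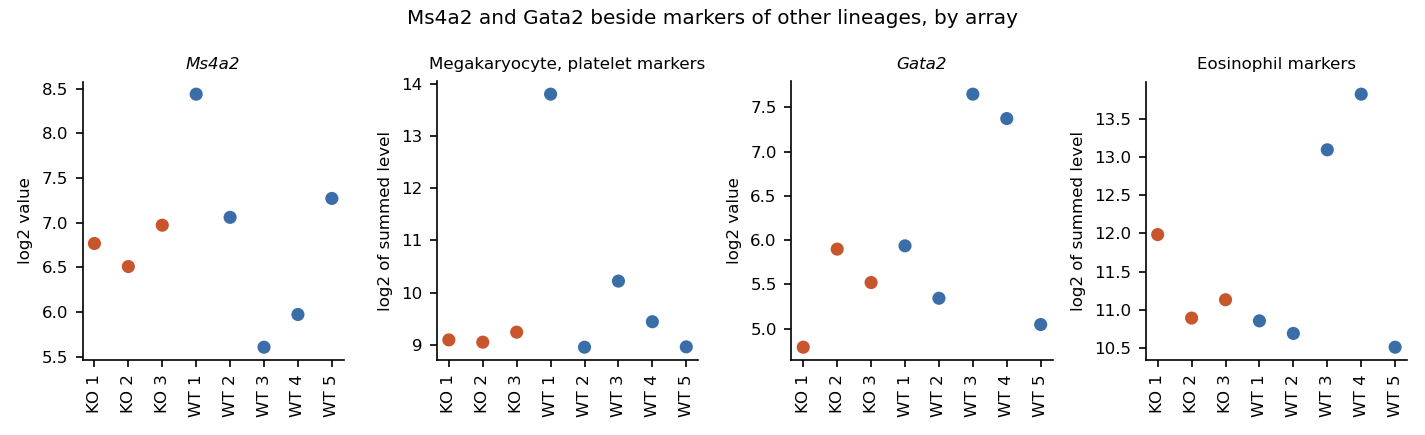
Ms4a2, the summed level of megakaryocyte and platelet markers, Gata2 and the summed level of eosinophil markers on each array, on the log2 scale, with KO in orange and WT in blue. WT array 1 is highest in Ms4a2 at 8.44 and in platelet markers at 13.80, and WT arrays 3 and 4 are lowest in Ms4a2 and highest in Gata2 and eosinophil markers.

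The wider machinery of mast cells and basophils was followed in 9 lists of 134 genes, of which 124 were measured and 81 tested. The lists include the 8 members themselves, so their counts and medians are not separate from the values above. None of the 81 was called by limma at an adjusted p under 0.05, and 2, Irf8 and Ccl3, had an unadjusted p under 0.05, or 2.47%, beside 2.86% of all tested genes. Groups were fully apart in 3 of the 81, or 3.70%, beside 3.1% of all tested genes. Over the 81 genes the median difference was 0.03, with 43 above 0 and 38 below, and the median over all tested genes was 0.04, with 55.7% above 0. Values are given below for the lowest unadjusted p in each list, none of which passed the adjustment.

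Among transcription factors, 13 of 17 measured genes were tested, with a median difference of -0.01 and 6 above 0. The median ran from -0.09 without WT array 3 to 0.04 without WT array 4. Gata2 was 4.79, 5.90 and 5.52 in KO and 5.94, 5.34, 7.65, 7.37 and 5.05 in WT. Only on KO array 2 and WT arrays 1, 3 and 4 was it above the highest background row. It was high in WT arrays 3 and 4, and the KO values lay within or below the range of the other 3 WT arrays. Its difference was -0.87 with a standard error of 0.63 and an exact permutation p of 0.286, and it was -0.52 without WT array 3. Mitf, averaging 5.66 ± 0.87 (SD, n = 3) for KO against 5.13 ± 0.62 (SD, n = 5) for WT, was above the median row on 4 of 8 arrays, and its difference of 0.53 was 0.04 without KO array 3. Only on KO array 3 and WT array 5 was Mitf above the highest background row. Irf8, which directs monocyte and dendritic cell fate, averaged 8.18 ± 0.82 (SD, n = 3) for KO, against 9.15 ± 0.24 (SD, n = 5) for WT. All 3 KO arrays lay below the WT arrays, with an exact permutation p of 0.0179, the smallest that 56 splits can give, and a limma adjusted p of 0.999. The difference of -0.97 was -0.50 without KO array 1.

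Growth factor receptors numbered 10 measured and 8 tested, with a median of 0.02. It was -0.04 both with quantile normalization and without WT array 3, and -0.18 without KO array 1. Il3ra encodes the alpha chain of the receptor for interleukin-3, the main growth factor of basophils, and was 10.89, 10.71 and 10.81 in KO and 12.14, 11.24, 12.94, 11.21 and 11.13 in WT. Every KO array lay below every WT array, with a difference of -0.93, a standard error of 0.42 and an exact permutation p of 0.0893. Kit, the stem cell factor receptor on which mast cells depend, averaged 15.9 ± 0.18 (SD, n = 3) for KO, against 16.2 ± 0.17 (SD, n = 5) for WT, or -0.30 with an exact permutation p of 0.0714. Il4ra, a receptor for interleukin-4, differed by 0.16, and by -0.02 without WT array 3.

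The list of the IgE receptor and its signalling includes the receptor chains Ms4a2, Fcer1a and Fcer1g. Of its 15 measured genes, 13 were tested, with a median of -0.01, which is the value of Fcer1g. The median lay between -0.07 and 0.03 with 1 array left out. Lat2, an adaptor of mast cell signalling, differed by -1.08 with a standard error of 0.59, and by -0.66 without KO array 1 and -0.72 without WT array 4. Gab2, an adaptor that recruits PI3K, differed by 0.21, and Plcg1, a phospholipase C, by 0.38, and without WT array 3 these were 0.12 and 0.07. Of 7 measured genes of the interleukin-33 receptor and its signalling, all tested, the median was 0.04. It lay between -0.13 and 0.33 with 1 array left out, and was -0.05 with quantile normalization. Il1rap, the chain that pairs with the product of Il1rl1, differed by 0.77, the adaptor gene Myd88 by 0.40 and the inhibitory receptor gene Sigirr by -0.31, and without WT array 3 Il1rap and Myd88 were at 0.43 and 0.25.

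Enzymes of histamine and lipid mediators had a median of 0.22 over 7 tested genes of 12, and of 0.03 without WT array 3. Hnmt, which inactivates histamine, averaged 10.2 ± 0.17 (SD, n = 3) for KO, against 9.43 ± 1.39 (SD, n = 5) for WT, where WT array 3 was at 7.16. Its difference was 0.75, and 0.19 without that array. Alox5, the first enzyme of leukotriene synthesis, differed by 0.61. It differed by -0.04 with the replicate number as a block, which rests on arrays 1 to 3 of each group. With 1 array left out it ran from 0.33, without WT array 4, to 0.94, without WT array 2, and it was 0.93, 0.38 and 0.40 without KO array 1, KO array 3 and WT array 5. Lta4h, which makes leukotriene B4, differed by 0.22, and by 0.0081 without WT array 3.

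Inhibitory and CD200 family receptors had a median of 0.16 over 9 tested of 12 measured genes, and of -0.04 without WT array 3 or without KO array 3. Lilrb4a and Pirb, inhibitory receptors of myeloid cells, differed by -1.13 and -0.70, and at -0.52 and -0.20 if KO array 1 was left out. Siglecf, a lectin of eosinophils and other myeloid cells, differed by 0.58, and by 0.11 without KO array 1. Secretory granule and exocytosis genes had a median of 0.09 over 13 tested of 17, and of -0.02 without WT array 3. Vamp7, a vesicle fusion protein gene, was higher on all 3 KO arrays than on any WT array, with a difference of 0.60 and an exact permutation p of 0.0893, and 0.35 without WT array 3. Rab27a, which docks granules at the membrane, differed by 0.24, and by 0.04 without KO array 2. Chst11, which sulphates chondroitin chains, differed by 0.32, and by 0.01 without WT array 3.

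Granule proteases had a median of -0.20 over 4 tested of 13, which was 0.0016 without KO array 2 and -0.42 if KO array 3 was dropped. These 4 were the members Cpa3, Mcpt8 and Prss34, together with Ctsg, so the median restates values given above. The remaining surface and cytokine genes were mostly dim, with 13 of 22 below the median row on all arrays, interleukins 4 and 13 among them. Their 8 tested genes had a median of -0.24, which was 0.04 without KO array 2 and 0.09 with the stricter filter. Ccl3, a chemokine that activated mast cells and basophils release, differed by -1.11 with an exact permutation p of 0.0893. It was above the highest background row only on WT arrays 1, 3, 4 and 5, and on no KO array. Itga2b, an integrin of platelets and early mast cells, differed by -1.15, and Csf1 by -0.94. Without WT array 1 Itga2b was at -0.66, and without KO array 3 Csf1 was at -0.38.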

How the data were processed

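Per the labels' protocols, RNA from the sorted cells was taken up with PicoPure reagents, and biotin-labelled material went onto Affymetrix arrays. The authors deposited 1 table of log2 values for 8 arrays, 28846 rows by 8 columns. The log base was read from the range of the values, 1.89 to 18.6. How background was corrected and arrays were normalized is not given in the sources used here, and scanner files were not used here. The row identifiers fit the annotation of a different Affymetrix mouse design from the one the series text names, and which was hybridised is unknown.

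The table held 22206 transcript rows, 19572 of them with 1 symbol, 0 with several and 2634 with none. Symbols were updated through gene identifiers in RefSeq (GRCm38.p6), where 19572 were found, and each of the 19505 genes was read from its row of highest mean. KO (3 arrays) was compared with WT (5) by limma 3.58.1 in R 4.3.3 (lmFit, eBayes, two-sided), with Benjamini-Hochberg adjusted p-values. Exact two-sided permutation tests of single genes used 56 splits. The number of arrays limits the precision. The fit was tested on simulated data.

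The members, gene lists and tests were chosen with earlier results of these data known. Named genes are the members, up to 3 further tested genes per list by lowest unadjusted p, the 8 genes most like the tested members, the targeted gene, and defining eosinophil and platelet markers. Fcer1g, the named dim proteases and the comparison with background rows, and the shares of outlying arrays over all genes, were chosen after values were seen. Alternatives were no filter, a stricter filter (60th percentile on 5 arrays), array weights and a replicate block. Another floored values at the 25th percentile of all transcript rows on all arrays together. The others were centring by the median, quantile normalization, robust eBayes with a trend, the row of largest variance, and leaving out each array. Figures used matplotlib 3.10.9 in Python 3.11.15.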

Additional observations from a re-analysis of the deposited data

Results flagged for a closer look

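In the 5 WT arrays, the 7 measured members and the 25 genes named from the lists were screened for 1 array standing off from the other 4, by its gap to the nearest over the range of the group, and 5 of 32 genes had one. Chance gives about 1 in 20, but 16.4% of all 10293 tested genes had one, and of these 86.3% were in WT array 3, so 5 of 32 is near the general share. The 25 genes had been picked by their p in the same data. Of the 5 arrays so found, 4 were WT array 3 at the low end. Hdc was at 7.17 there, against 8.63 on the nearest WT array. Plcg1 was at 6.11, Il4ra at 11.45 and Chst11 at 10.26 on the same array. The other was Ccl3 in WT array 2, at 5.03 against 6.36 on the nearest.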

How the results depend on the processing

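With 8 arrays the intervals of Cpa3, Mcpt8, Ms4a2 and Hdc reach beyond 1 log2 unit, and values near background understate differences. Under each of 17 alternatives limma called 0 genes over all tested genes and 0 of the listed genes, and the smallest adjusted p over all genes was 0.264. Leaving out 1 array at a time moved the differences of Cpa3 from -1.49 to -0.69, Mcpt8 from -0.69 to 0.45, Ms4a2 from -0.44 to 0.27, Prss34 from -0.33 to -0.15, Hdc from 0.10 to 1.62, Fcer1a from 0.05 to 0.16 and Cd200r3 from -0.12 to 0.14. The direction turned with array weights for Mcpt8 (0.019), and with the floor at the 25th percentile for Fcer1a (-0.0065) and Cd200r3 (-0.025), and the cause was not tested. Il4ra ranged from -0.019 to 0.22 with 1 array left out. The correlation of Ms4a2 with Fcer1a passed without KO array 2, at an r of -0.86 and an adjusted exact permutation p of 0.0292, and ranged from -0.87 to -0.73 with 1 array left out. The median r over the pairs stayed between -0.12 and 0.13. Cpa3, Prss34, Gata2, Mitf and Ccl3 did not enter the stricter filter. Of 153 list medians under alternatives, 7 moved by more than the spread of the WT arrays.

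Samples of KO and WT share replicate numbers in the titles, and the labels do not say that a number marks a shared mouse or day. Deviations from the group means correlated by 0.015, -0.015 and 0.14 for numbers 1 to 3. With so few arrays, these values cannot show whether samples of the same number shared a mouse or day. Numbers 4 and 5 occur only in WT, so a difference fitted with the replicate number as a block rests on arrays 1 to 3 of each group. With the replicate number as a block, 0 genes were called, and Alox5 was at -0.042. The block gave -1.14 for Cpa3, -0.29 for Mcpt8, -0.29 for Ms4a2, -0.27 for Prss34 and 0.84 for Hdc, with unadjusted limma p of 0.00879 for Cpa3 and 0.0560 for Hdc against 0.0650 and 0.298 without it, and adjusted p of 0.939 for both. At an unadjusted p under 0.05 this gave 1 of the 5 members, beside 3.39% of all tested genes. Among the 5 tested members and the 25 further genes named from the lists, Alox5 was the 1 gene whose direction turned.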
